A study of Homo sapiens with 2 samples.

Results

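The classical cadherins and their close relatives were compared between 2 human melanoma cell lines, IGR37, derived from a lymph node metastasis, and IGR39, derived from a primary skin tumour that the labels call achromic. Both are established lines known to come from the same patient, and each was measured on 1 Affymetrix Human Genome U133 Plus 2.0 array. The set was 9 genes, CDH1, CDH2, CDH3, CDH4, CDH6, CDH11, CDH13, CDH15 and CDH19, and all probe sets that the platform annotation gives to one of them alone. That gave 20 of 54675 probe sets, for 7 of the 9 genes, out of 19775 genes named in all. No probe set was named for CDH4 or CDH13 alone, so these genes were not analysed here. No treatment or engineered allele is given in the labels for either line, and both were grown in serum-containing medium.

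Cadherins are single-pass membrane proteins that bind the same or a related cadherin on the next cell in the presence of calcium. Inside the cell, the tail of a classical cadherin binds p120-catenin and beta-catenin, and alpha-catenin joins beta-catenin to actin. In skin, melanocytes are held to keratinocytes mainly through E-cadherin, and melanoma cells that lose E-cadherin often carry N-cadherin, which fibroblasts and endothelial cells also carry. Type I cadherins are represented here by CDH1, CDH2, CDH3 and CDH15, and type II cadherins, whose outermost domain docks in a different way, by CDH6, CDH11 and CDH19.

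CDH1 and CDH19 were higher in IGR37, and CDH2 and CDH11 were lower. CDH3, CDH6 and CDH15 lay below log2 6 in both lines, the minimum above which a level was taken as measured. CDH2 and CDH19, which differed in opposite directions, both lie on chromosome 18, and the 250 bases before their starts are shown because they differ in base composition. They are the 2 of these 4 members that matched the promoter table, and CDH1 and CDH11 did not. The windows come from RefSeq, build GRCh38.p14, on the minus strand, with CpG dinucleotides in capitals. The CDH2 window is chr18:28177131-28177380 and the CDH19 window is chr18:66604091-66604340.
CDH2: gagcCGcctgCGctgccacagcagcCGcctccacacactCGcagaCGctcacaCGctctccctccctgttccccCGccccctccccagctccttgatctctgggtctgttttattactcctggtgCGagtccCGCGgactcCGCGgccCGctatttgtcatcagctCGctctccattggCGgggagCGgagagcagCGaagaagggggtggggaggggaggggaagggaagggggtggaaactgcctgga
CDH19: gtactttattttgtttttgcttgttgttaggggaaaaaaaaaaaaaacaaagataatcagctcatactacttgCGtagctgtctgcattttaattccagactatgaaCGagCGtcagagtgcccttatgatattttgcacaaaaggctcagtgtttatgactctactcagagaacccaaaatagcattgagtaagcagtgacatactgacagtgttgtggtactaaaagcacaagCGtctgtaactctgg

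The CDH2 window was 66% G and C and held 17 CpG dinucleotides. The CDH19 window was 38% G and C and held 4. Over 35114 windows of the same length before annotated starts, the medians were 58% and 11 CpG dinucleotides. Of all windows, 70.7% were at or below CDH2 in G and C content and 10.1% were at or below CDH19. The E-box CANNTG, the class of site bound by ZEB, SNAI, TWIST and MITF proteins, occurred in neither printed window, against 61.8% of all windows (it reads as CANNTG on both strands). The form that ZEB and SNAI proteins bind, CACCTG or CAGGTG on the other strand, is an E-box too and occurred in 17.5% of all windows. A further annotated start of CDH2, with the window chr18:28036642-28036891, was 42% G and C, held 4 CpG dinucleotides and had 1 CANNTG match, with its first base at position -97 from the start. The contrast in base composition with CDH19 therefore depends on which CDH2 start is taken, and the printed windows were shown because of it. Binding and methylation were not measured on these arrays.

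Values are log2 expression levels made by RMA, which fits away a background, equalises the arrays and summarises each probe set. Differences are IGR37 minus IGR39, so that positive values mean a higher level in IGR37, and a value of 1 stands for 2-fold. Neither line has a second array, so there is no test and no replicate check of any value, and precision is limited by the number of arrays. The array medians were 4.14 in IGR37 and 4.17 in IGR39. Between the arrays, 18 probe sets of hybridisation controls differed by -0.14 to 0.21, and 24 of poly-A controls by -0.47 to 0.68. Differences between probe sets of the same gene had a pooled SD of 0.40 over 3178 genes. Markers of melanocytic cells were at or above log2 6 in IGR37 for 9 of 10 measured genes. In IGR39 only MITF was, at 7.57, with SOX10 at 4.10 and MLANA at 3.33, so the melanocytic markers of that line were mostly at the level of unexpressed genes. The 10 measured lymphocyte and macrophage markers, which cultured melanoma cells should lack, stood between 3.20 and 5.03 over both lines.

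Of the 7 measured cadherins, 4 reached log2 6 in at least one line. Of these, 2 were at least 2-fold higher in IGR37, against 11.4% of the 8501 genes at that level, and 2 were at least 2-fold lower, against 9.50% of those genes. In either direction the share over all genes was 21.0%. All 4 reached the minimum through their brighter line alone, which favours a difference, so the count of 4 is a description and not a sign that cadherins differ more often than other genes. The plot of levels by probe set shows all 20.

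**Figure D1:**
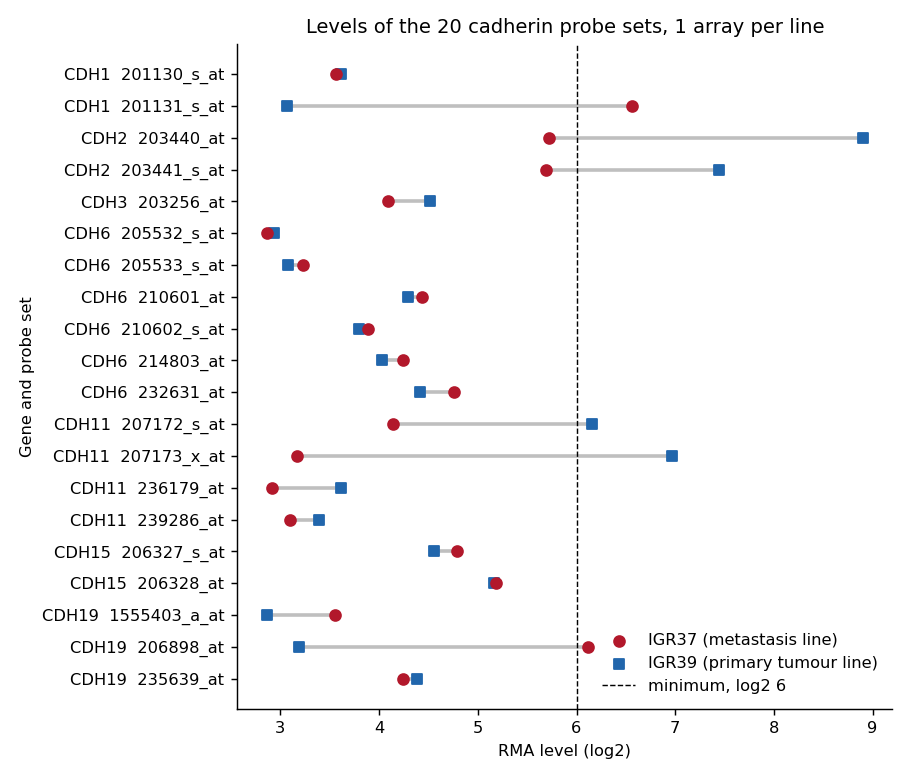
RMA level (log2, horizontal axis) of each of the 20 cadherin probe sets in IGR37 (red circles) and IGR39 (blue squares), 1 array per line, joined by a grey bar, with the minimum of log2 6 dashed. A CDH1 and a CDH19 probe set lie to the right in IGR37, both CDH2 probe sets and a pair of CDH11 probe sets lie to the right in IGR39, and the remaining 14 stay below the minimum in both lines.

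CDH1 encodes E-cadherin, the epithelial cadherin that joins melanocytes to keratinocytes. Its brighter probe set, 201131_s_at, stood at 6.56 in IGR37 and 3.07 in IGR39, a difference of 3.49 or 11.2-fold. The value in IGR39 lay below the lowest of the lymphocyte markers, so the fold rests on a level near background, where RMA compresses differences. Among the 8501 genes, 99 (1.16%) had a difference at least as large in this direction. Its other probe set, 201130_s_at, did not show it, at 3.56 in IGR37 and 3.61 in IGR39, within the range of the lymphocyte markers in both lines. The mean of both probe sets gave a difference of 1.72, with the averaged level below the minimum. Markers of keratinocytes, which carry E-cadherin themselves, did not differ beside it. Of 5 measured, KRT5, KRT14, KRT1 and DSG3 stood between 3.25 and 3.85 in IGR37 and between 3.29 and 3.87 in IGR39. KRT10 was at 9.08 and 9.13, and the log2 of the summed level of the list was 9.20 in IGR37 and 9.25 in IGR39.

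CDH2 encodes N-cadherin, the cadherin of neural and mesenchymal cells, and it was the only member at or above log2 7 in either line. Both of its probe sets were lower in IGR37. The brighter, 203440_at, stood at 5.72 in IGR37 and 8.90 in IGR39, a difference of -3.18 or 9.03-fold. The other, 203441_s_at, stood at 5.69 in IGR37 and 7.44 in IGR39, a difference of -1.75. IGR37 was thus just under the minimum on both probe sets, though above the lymphocyte markers, and IGR39 was above it on both. Of the 8501 genes, 158 (1.86%) were at least as far in this direction.

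The other type I cadherins stayed below the minimum. CDH3, which encodes the P-cadherin of basal epidermis and hair follicles and lies next to CDH1 on chromosome 16, had 1 probe set, at 4.09 in IGR37 and 4.52 in IGR39. CDH15, the M-cadherin of muscle, stood at 5.19 in IGR37 and 5.17 in IGR39 on its brighter probe set, and at 4.79 and 4.55 on the other. The differences were -0.42 for CDH3 and 0.02 and 0.24 for CDH15, all within 2-fold.

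Among the type II cadherins, CDH11 was lower in IGR37. It encodes the OB-cadherin of mesenchymal cells and osteoblasts. The probe set with the highest mean, 207172_s_at, stood at 4.15 in IGR37 and 6.16 in IGR39, a difference of -2.01 or 4.03-fold. A second one, 207173_x_at, stood at 3.17 in IGR37 and 6.96 in IGR39, a difference of -3.80. In IGR37 the first lay among the levels of the lymphocyte markers and the second just below them, and in IGR39 both lay above the minimum. The endings _s_at and _x_at mark probes that can also match other transcripts. The remaining probe sets, 236179_at and 239286_at, stayed below log2 4 in both lines and differed by -0.70 and -0.29. Without probe sets of those endings CDH11 was therefore below the minimum. For CDH11, 347 genes (4.08%) were at least as far in this direction.

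Fibroblasts carry CDH2 and CDH11, and part of the fibroblast marker list was lower in IGR37 with them. Of 9 measured markers, 4 reached log2 6. FAP was at 6.83 in IGR37 and 8.85 in IGR39, and COL1A2 was at 3.84 and 6.27. LUM went the other way, at 6.26 in IGR37 and 3.41 in IGR39, and COL1A1 was at 6.15 and 5.87. The markers PDGFRA, PDGFRB, DCN, THY1 and COL3A1 were below log2 6 in both lines. The log2 of the summed level of the list was 8.58 in IGR37 and 9.53 in IGR39, and its part in the cadherin differences was not tested. In a culture, fewer cells with a transcript and less of it per cell cannot be told apart.

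CDH19, a type II cadherin of Schwann cells and other neural crest derivatives, was the other member higher in IGR37. Probe set 206898_at, the brightest, stood at 6.12 in IGR37 and 3.19 in IGR39, a difference of 2.93 or 7.62-fold. The IGR37 value was only just above the minimum. Of the 8501 genes, 158 (1.86%) were at least as far in this direction. The other probe sets of CDH19 stayed below log2 6, with 1555403_a_at at 3.55 in IGR37 and 2.86 in IGR39 and 235639_at at 4.24 and 4.38. The mean of all its probe sets gave a difference of 1.16, with the averaged level below the minimum.

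CDH1 and CDH19 shared a level below log2 4 in IGR39 together with a level above log2 6 in IGR37. Of 6080 genes below log2 4 in IGR39, 92 (1.51%) reached log2 6 in IGR37. CDH2 and CDH11 went the other way, above the minimum in IGR39 and below it in IGR37. At 5.72 and 4.15 in IGR37, neither was below log2 4 there. Of 7685 genes at or above log2 6 in IGR39, 437 (5.69%) were below log2 6 in IGR37 and at least 2-fold lower. These shares describe how common each pattern was among all genes on the same arrays. They use unlike limits and gene sets, so they are not comparable with each other.

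CDH6 encodes K-cadherin, a type II cadherin of kidney and of the early neural crest. Its 6 probe sets lay between 2.87 and 4.76 over both lines. Their differences were -0.06 to 0.35, so the lines could not be separated for CDH6 at these levels. Over all 14 member probe sets below log2 6 in both lines, differences ran from -0.70 to 0.69, and 0 reached 2-fold, against 3.05% of 27939 named probe sets below log2 6. Of the 6 member probe sets at or above it, 2 were higher in IGR37 by 2-fold or more and 4 were lower. Among all 13152 named probe sets at that level, 21.8% were past 2-fold in either direction.

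**Figure D2:**
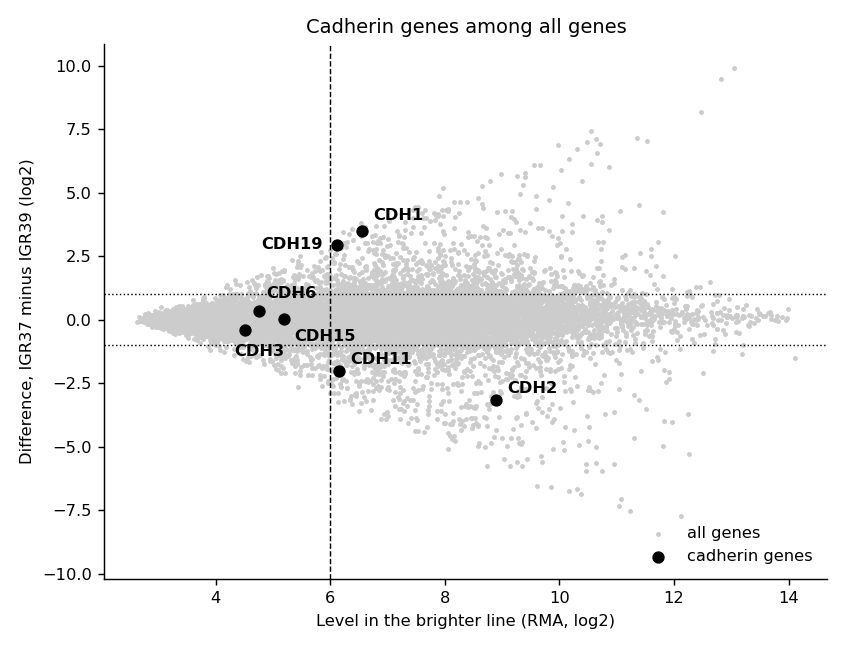
Difference between the lines (IGR37 minus IGR39, log2, vertical axis) against the level in the brighter line (RMA, log2, horizontal axis), with all 19775 genes in grey and the 7 measured cadherins in black. The dashed line is the minimum of log2 6 and the dotted lines are 2-fold; CDH1 (3.49) and CDH19 (2.93) lie above, CDH2 (-3.18) and CDH11 (-2.01) below, and CDH3, CDH6 and CDH15 lie left of the minimum near 0.

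Neighbouring genes on the chromosome were read next, taking the 4 nearest protein-coding genes with a named probe set on each side. Their counts past 2-fold are small and stand against 21.0% of all genes at the minimum. Around CDH2 lie the desmosomal cadherins, which build the desmosomes of epithelia. The 7 desmocollin and desmoglein genes all lie on chromosome 18, and each was below log2 6 in both lines. The highest of them was DSG2, at 4.03 in IGR37 and 4.09 in IGR39. On the other side of CDH2, KCTD1 was lower in IGR37, at 5.31 against 7.01 in IGR39, and TAF4B was higher, at 6.88 against 5.42 in IGR39. Of 8 neighbours of CDH1, 5 reached the minimum and 1, PRMT7, was at least 2-fold higher in IGR37, at 7.07 against 5.73 in IGR39. TANGO6, on the far side of CDH1 from CDH3, stood at 6.28 in IGR37 and 5.30 in IGR39, a difference of 0.99. Of the neighbours of CDH11, 5 of 8 reached the minimum, and TK2 and CKLF were at least 2-fold lower, with differences of -1.22 and -1.16. Around CDH19 only TMX3 reached the minimum, at 7.51 in IGR37 and 7.39 in IGR39. Around CDH2 the 2 neighbours at the minimum were both past 2-fold, in opposite directions, and those within 2-fold lay below log2 6 in both lines. Around CDH1, CDH11 and CDH19 at least 1 neighbour at the minimum lay within 2-fold. No neighbour differed by as much as the member itself.

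**Figure D3:**
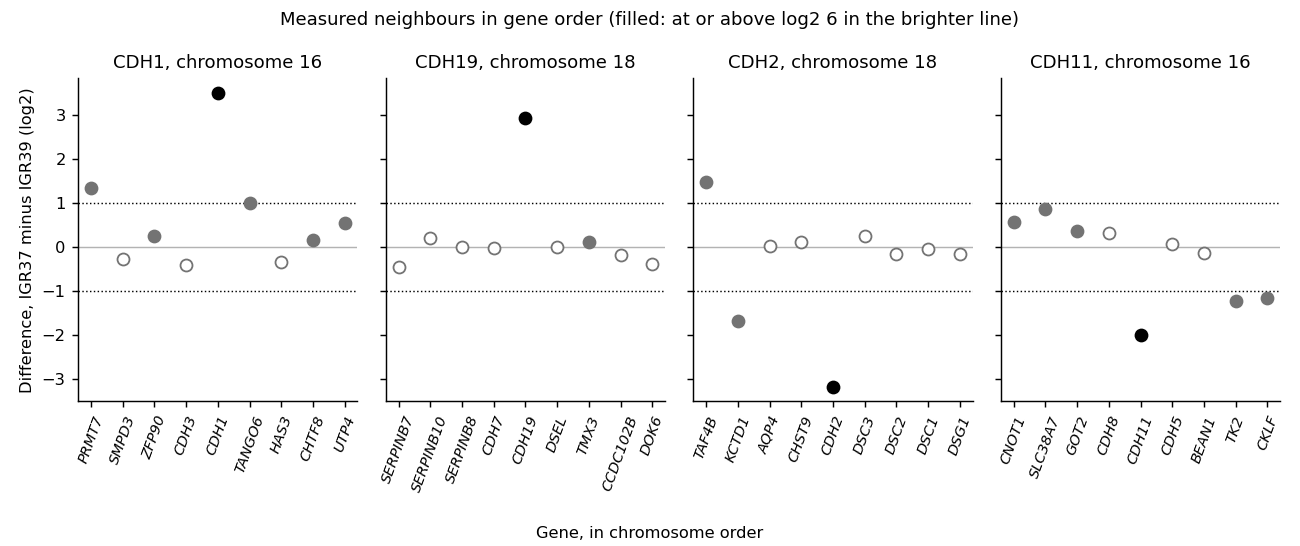
Difference between the lines (IGR37 minus IGR39, log2, vertical axis) of CDH1, CDH19, CDH2 and CDH11 (black) and of the 4 nearest measured genes on each side (grey), in chromosome order along the horizontal axis. Filled points reached log2 6 in the brighter line, open points did not, and dotted lines are 2-fold; the member is the point farthest from 0 in each panel.

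Among catenins and other partners that sit under cadherins, CTNNA1 differed little, CTNNB1 was past 2-fold, and several linkers and a phosphatase differed more. Of 25 measured, 17 reached the minimum. By the 2-fold limit 2 of these were higher in IGR37, 4 were lower and 11 differed by less, so that 6 of 17 were past it, against 21.0% of all genes at that level. The median difference was -0.18, against 0.07 over all 8501 genes. CTNNA1, alpha-catenin, stood at 10.67 in IGR37 and 10.82 in IGR39. CTNNB1, beta-catenin, stood at 10.18 in IGR37 and 9.14 in IGR39, a difference of 1.04 that is barely past 2-fold, and a second probe set stood at 6.83 in IGR37 and 5.34 in IGR39. JUP, plakoglobin, which can take the place of beta-catenin, was below the minimum at 4.48 in IGR37 and 5.11 in IGR39. No probe set was named for CTNND1, p120-catenin, alone.

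The partners lower in IGR37 were linkers to actin and to tight junctions, and a phosphatase. AJUBA, a LIM protein that binds alpha-catenin, stood at 4.40 in IGR37 and 8.57 in IGR39, a difference of -4.18, and a second probe set differed by -3.80. PTPRF, a receptor tyrosine phosphatase of junctions, stood at 4.61 in IGR37 and 7.93 in IGR39, and all 3 of its probe sets at the minimum were lower, by -2.25 to -3.33. VCL, vinculin, which is recruited to alpha-catenin under tension, stood at 8.31 in IGR37 and 11.04 in IGR39. Another VCL probe set did not show it, at 3.30 in IGR37 and 3.42 in IGR39. TJP1, the ZO-1 scaffold, stood at 5.09 in IGR37 and 7.14 in IGR39. PTPRM, a phosphatase that binds its like on the next cell, was higher, at 7.23 in IGR37 against 6.19 in IGR39. A second PTPRM probe set differed by 0.89, under 2-fold. LIMD1, CTTN and ARVCF had the smallest differences by the probe set with the highest mean, from -0.01 to -0.03, but a dimmer CTTN probe set stood at 6.75 in IGR37 and 5.69 in IGR39.

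Regulators of cadherin genes divided. Of 24 measured, 12 reached the minimum. By the 2-fold limit 6 were higher in IGR37, 2 were lower and 4 differed by less, against 11.4% higher and 9.50% lower over all genes at that level. The median was 1.15. The list holds E-box binding repressors of CDH1, their co-repressors, an epithelial splicing regulator and melanocyte factors. The 6 higher genes included ESRP1, the splicing regulator, and SOX10 and MITF, which were also among the melanocytic markers above. Among the repressors, ZEB1 was at 3.09 in IGR37 and 7.48 in IGR39, while ZEB2 was at 6.73 and 3.42. Their other probe sets, all below log2 6, differed by -1.07 to -0.16 for ZEB1 and by -0.18 to 1.29 for ZEB2. SNAI2 was higher in IGR37, the line with more CDH1, at 10.33 against 8.94 in IGR39, and TWIST1 was at 7.71 in IGR37 and 6.72 in IGR39, just under 2-fold. SNAI1 was below the minimum, at 4.95 in IGR37 and 5.45 in IGR39. Repressors of CDH1 therefore lay on both sides.

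At the minimum, the other regulators past 2-fold were mostly higher in IGR37. KLF4, a zinc finger factor that can activate CDH1 in epithelia, was the other lower gene, at 5.69 in IGR37 and 9.42 in IGR39. ESRP1, an epithelial splicing regulator, was higher by 4.03 and 4.60 on its probe sets. TFAP2A, a factor of epidermis and neural crest, was at 10.06 in IGR37 and 8.75 in IGR39. A second TFAP2A probe set at the minimum differed by 0.91, under 2-fold. SOX10 and MITF, the melanocyte factors of the list, differed by 6.55 and 4.25. TCF3, CTBP1 and CTBP2 lay within 2-fold. Below the minimum the regulators past 2-fold were all lower in IGR37. Over all named probe sets below log2 6, 3.05% were past 2-fold in either direction. TWIST2, TCF4, FOXC2 and GATA3 differed by -2.17, -1.72, -1.59 and -1.57, so the lean towards IGR37 depends on the minimum. Other probe sets differed by only -0.16 for FOXC2, and by -0.04 and -0.21 for GATA3.

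Of 20 measured proteases that shed or process cadherins, 14 reached the minimum. Of these, 2 were higher in IGR37 by 2-fold or more, 3 were lower and 9 differed by less, against 21.0% of all genes past 2-fold in either direction, and the median was 0.09. ADAM10, the main sheddase of E-cadherin and N-cadherin, stood at 9.64 in IGR37 and 8.58 in IGR39, and its 3 probe sets differed by 0.98 to 1.44. PSEN2, a catalytic subunit of gamma-secretase, was at 7.68 in IGR37 and 5.92 in IGR39. ADAM19 was lower in IGR37, at 4.13 against 8.33 in IGR39, though a second probe set was below log2 4 in both lines. MMP3, stromelysin, was at 3.45 in IGR37 and 6.03 in IGR39, and ADAM9 at 8.17 and 9.43. FURIN, which cuts the propeptide of cadherins, was at 7.18 in IGR37 and 7.10 in IGR39.

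More distant relatives were largely below log2 6 in both lines. Of 18 other cadherin genes measured, 1 reached the minimum, CDH22, at 6.21 in IGR37 and 6.13 in IGR39. Of 11 protocadherins, PCDH1 and PCDH18 reached it and lay within 2-fold, with differences of -0.30 and -0.33. Among 12 giant cadherins and calsyntenins, 5 reached it and 2 were at least 2-fold lower in IGR37, against 9.50% of all genes at that level. So few genes say little about the family. FAT1, a giant cadherin of planar and cell contact signalling, was at 6.32 in IGR37 and 7.81 in IGR39, and CELSR1, a planar polarity cadherin, at 5.40 and 6.48. The CELSR1 difference of -1.08 was barely past 2-fold. Its other probe sets, below log2 4 in both lines, differed by 0.02 and 0.40. Of 13 desmosomal genes, DSP, PKP4 and PERP reached the minimum, with differences of 0.17, 0.63 and 0.03. Of 5 nectin genes, 3 reached it, all within 2-fold, and their median was -0.44. Among relatives below the minimum, those past 2-fold were all lower in IGR37. Of all named probe sets below log2 6 in both lines, 3.05% were past 2-fold in either direction. NECTIN3, FAT3, CLSTN2, PCDH9 and PKP2 differed by -1.86, -2.08, -1.58, -1.54 and -1.09. In IGR39 they stood at 5.85, 5.38, 5.42, 5.67 and 4.47.

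**Figure D4:**
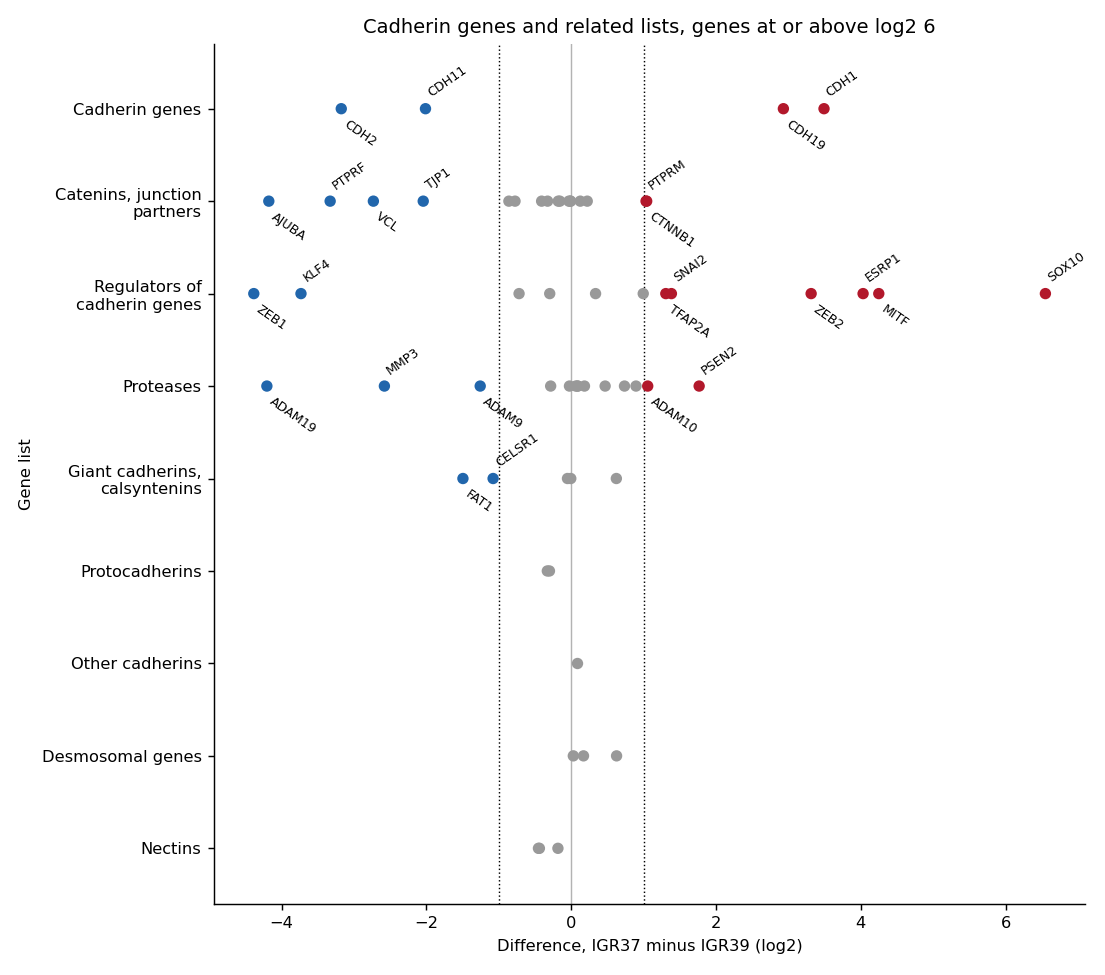
Difference between the lines (IGR37 minus IGR39, log2, horizontal axis) for the cadherin set and 8 related lists (rows), a point per gene that reached log2 6 in the brighter line. Red points are higher in IGR37 by 2-fold or more, blue points are lower by as much, grey points differ by less (dotted lines), and the cadherin row has 2 genes on each side and none between.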

How the data were processed

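Total RNA of each line was labelled with biotin and hybridised to its own array. The authors deposited log2 levels for each probe set and, per the submitters' processing notes, made them by RMA in affy. Their versions and the arrays normalised together are not given in the sources. RMA's quantile normalisation hides an overall change in RNA level between lines.

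Names came from the platform annotation and were brought up to date by gene ID with a RefSeq table of GRCh38.p14, which matched 41037 of 41091 probe sets with 1 symbol. The 1801 probe sets with several symbols, 11721 with none and 62 controls were left out of gene values. A gene was read from the probe set whose mean over the arrays was highest. Calls used log2 6 in the brighter array and a 2-fold limit, with no test.

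Every cadherin of the set was named, and from each other list up to 5 genes at the minimum with the largest differences in each direction, up to 3 with the smallest, and the main catenins and CDH1 repressors. The members and lists were chosen with earlier results of these data known, and the neighbouring genes and promoter windows after the values were seen. No gene is named for a pattern like that of a member, since 2 arrays give a single difference per gene. The calculation was tested on simulated data. Alternatives covered the minimum, the probe set choice, the scaling and the fold limit. Python 3.11.15, numpy 2.4.6, pandas 2.3.3, statsmodels 0.14.6 and matplotlib 3.10.9 were used.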

Additional observations from a re-analysis of the deposited data

How the results depend on the processing

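The count of 2 cadherins at least 2-fold higher and 2 lower in IGR37 held at a minimum of log2 5, with no minimum, at limits of 1.5-fold and 3-fold, and under median centring, a lowess trend removed and centring on housekeeping genes. At a minimum of log2 7, and likewise when the probe sets of a gene were averaged, 0 were higher and 1, CDH2, was lower. Leaving out _s_at and _x_at probe sets, 1 was higher and 1 lower, CDH19 and CDH2, since all CDH1 probe sets have these endings. Then CDH11 differed by -0.70. With averaged probe sets the differences were 1.72 for CDH1, 1.16 for CDH19 and -2.46 for CDH2. Of 34 recomputed member differences, 30 moved by less than the pooled SD between probe sets of a gene, 4 moved by more, and 0 of those past 2-fold changed sign. The 4 were CDH1, CDH2 and CDH19 with averaged probe sets, and CDH11 without _s_at and _x_at ones. Each called cadherin thus moved under a choice of probe sets. The 3 scalings shift all genes by small amounts, so their results say little about single genes. Leaving out _s_at and _x_at probe sets kept the same probe set for CDH2, CDH3, CDH6, CDH15 and CDH19. CDH3 has 1 probe set, so its average was the same value. Such differences could not move, so the 30 are no measure of stability. Over the 8 related lists, 10 genes were higher and 11 lower, out of the numbers at the minimum given above for each list. With averaged probe sets 6 were higher. A minimum of log2 5 gave 19 lower, and no minimum gave 20. Over all genes, 923 of 10833 were lower at log2 5 and 960 of 19775 with no minimum. Of all 8501 genes at the main minimum, 973 (11.4%) were higher and 808 (9.50%) lower. At 1.5-fold 1958 and 1460 of them were, and at 3-fold 471 and 461. With averaged probe sets, 588 of 5878 genes were higher and 503 lower. The lists were not recounted at other fold limits. No paired analysis was possible because each line has 1 array. Levels near log2 3 to 4 limit every fold given here for CDH1, CDH11 and CDH19.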

Other observations

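The clustered protocadherins, which give neurons their surface identity, were read after the values were seen, by the start of their symbols. Of 48 probe sets named for one clustered protocadherin gene or pseudogene alone, 2 reached log2 6, 221450_x_at at 6.02 in IGR37 and 5.93 in IGR39 and 234724_x_at at 5.98 and 6.01. Of 10 probe sets shared by several clustered protocadherins, which enter no gene value, 0 reached log2 6. Differences over both kinds ran from -0.53 to 0.58, so none was past 2-fold.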
